A study of Mus musculus with 4 samples.

Results

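Integrins and the adhesion molecules that work with them were compared between macrophages of 2 inbred mouse strains. The members were the genes measured here that are named as integrin alpha or beta chains, together with 15 adhesion genes named one by one: Icam1, Icam2, Icam4, Icam5, Vcam1, Pecam1, F11r, Jam2, Jam3, Esam, Cdh5, Alcam, Mcam, Cd47 and Cd44. Genes of integrin-binding proteins were left out, among them Itgb3bp, whose name begins like that of a beta chain but which encodes a centromere protein, and Itga10 was not analysed here. This gave 41 of the 22180 genes measured, of which 17 encode alpha chains, 9 encode beta chains and 15 encode other adhesion molecules.

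Peritoneal macrophages came from wild type mice on regular chow, either 129S6/SvEvTac (129S6) or C57BL/6 (B6, substrain not given in the labels), at 3 months of age per the study's methods. Each mouse received 1 ml of 4% thioglycollate medium, an irritant broth that recruits leukocytes into the peritoneal cavity, and was lavaged with 10 ml of PBS after 4 days, and the cells were cultured overnight in DMEM with 10% FBS before lysis. Every array carried RNA pooled in equal amounts from 3 mice by the labels (the study's methods state a larger pool), with 1 array for each strain and sex (4 in all), so there were 2 arrays per strain and none repeated a strain and sex. The arrays were made to find genes whose expression differs between strains that differ in atherosclerosis.

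Integrins are receptors made of an alpha and a beta chain, and the pair decides which ligand is bound. In macrophages the beta2 family binds ICAMs and complement fragments, the beta1 family binds fibronectin, laminins, collagens and VCAM-1, and the alpha v family binds vitronectin and proteins that bridge apoptotic cells to the macrophage. JAMs, ICAMs, VCAM-1 and PECAM-1 are immunoglobulin-type molecules that serve as their ligands or bind each other at cell contacts. Cdh5 (VE-cadherin) and Cd44 (a hyaluronan receptor) belong to other structural families and were included as adhesion molecules of the same contacts.

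All values are log2 intensities of a gene's probe set, and differences are B6 minus 129S6 with the standard error (SE) of a limma fit that included sex. Where a strain has a pair of readings, the female pool comes first. A gene is said to pass when its limma p, adjusted over all genes, was under 0.05. A gene's own spread was only how far its female and male differences lay apart, with 1 residual degree of freedom. Limma combined it with a variance estimated over all genes, which carried 3.18 prior degrees of freedom and so more weight. Itga5, with differences of -0.32 in females and -0.31 in males, therefore still had an SE of 0.15. The p-values measure these 4 pools and not the animals. Arrays of 1 strain correlated at 0.989 (129S6) and 0.988 (B6) across genes, and arrays of different strains at 0.969 to 0.980. The general macrophage genes Cd68, Csf1r and Lyz2 read from 11.96 to 12.90 on all arrays. Csf1r and Lyz2 were lower in both B6 pools, Lyz2 by -0.52 ± 0.15 (SE). Over the 11 general macrophage genes read, differences ran from -1.65 (Cd14) to 1.07 (Aif1). The Y-linked genes read from 2.24 to 4.71 in the female pools, and 4.71 is used below as a background level. By that level 33 of the 41 members had at least 1 array above background and 8 had none.

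None of the 41 members passed in either direction, beside 0.338% of all genes that were higher in B6 and 0.514% that were lower in B6. At an unadjusted limma p under 0.05 there were 12 members (29.3%), beside 16.3% of all genes. Of these, 3 were higher in B6, namely the beta chains Itgb3, Itgb5 and Itgb7. The other 9 were lower in B6, and they were the alpha chains Itga1, Itgam and Itgax, the beta chain Itgb8, and Jam2, Jam3, F11r, Icam2 and Cdh5. Both B6 arrays lay above both 129S6 arrays in 3 members, beside 22.8% of all genes, and below them in 14 members, beside 26.1%. In both sexes the same 3 beta chains were at least 1.5-fold higher in B6, beside 3.02% of all genes, and 7 members (Itga1, Itgax, Jam2, Jam3, F11r, Icam2 and Cdh5) were at least 1.5-fold lower, beside 4.45%. The median difference was -0.10 over the 26 integrin chains and -0.17 over the 15 other molecules, against -0.02 over all genes.

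**Figure D1:**
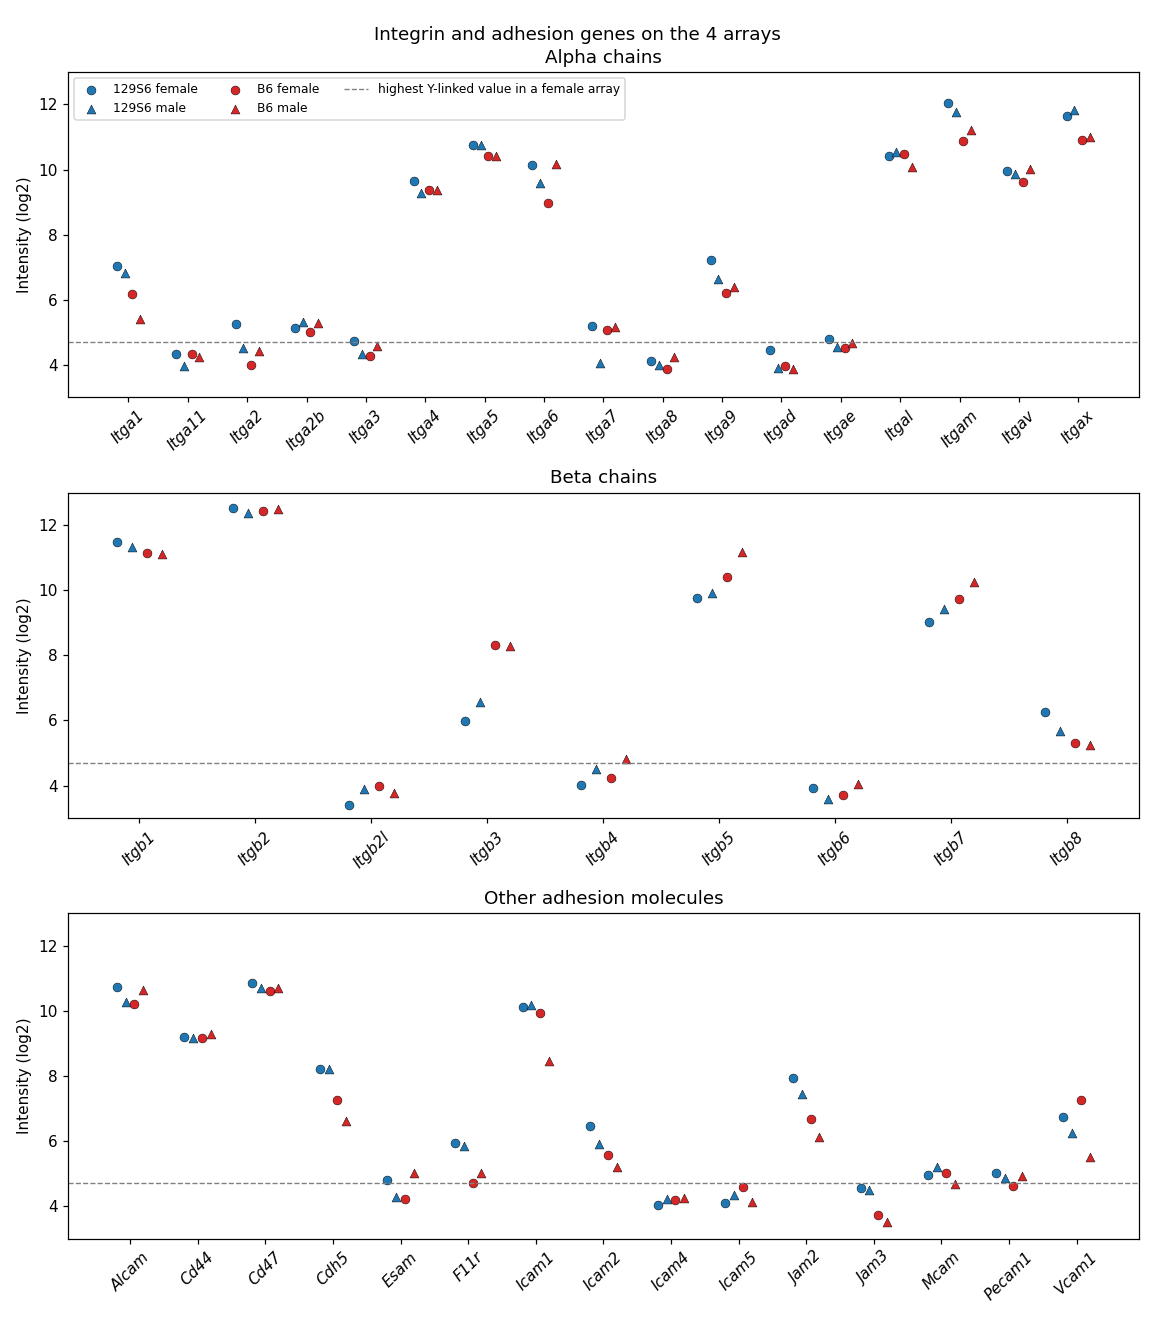
Log2 intensity (y axis) of the 41 members on the 4 arrays, by symbol (x axis), with alpha chains, beta chains and other adhesion molecules in separate panels. Blue is 129S6 and red is B6, circles are female and triangles male pools, and the dashed line at 4.71 is the highest reading of a Y-linked gene in a female pool. Itgb3, Itgb5 and Itgb7 are the members with both B6 points above both 129S6 points, while Itga1, Itgam, Itgax, Jam2, Cdh5 and F11r have both below.

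Itgb3, the beta chain of the vitronectin receptor alpha v beta3 and of the platelet fibrinogen receptor, had the largest strain difference among the members. It read 5.98 in the 129S6 female pool, 6.56 in the 129S6 male pool, 8.31 in the B6 female pool and 8.27 in the B6 male pool. Both B6 pools were high and close to each other, both 129S6 pools were low, and the strains did not overlap. The difference was 2.03 ± 0.22 (SE, n = 2 arrays per strain), a 4.07-fold higher mean in B6, with a 95% interval of 1.44 to 2.62 and a limma adjusted p of 0.0569. It missed the threshold on all 4 arrays. Limma fits of 3 arrays with strain alone gave 1.74 without the 129S6 female pool and 2.31 without the 129S6 male pool. They gave 2.01 without the B6 female pool and 2.05 without the B6 male pool. The alpha chains that pair with beta3 did not show such a gap. Itgav, the alpha v chain, read 9.96 and 9.85 in 129S6 and 9.61 and 10.03 in B6, and Itga2b, the platelet alpha IIb chain, read 5.14 and 5.31 against 5.02 and 5.29. In both, the strains overlapped, with differences of -0.09 ± 0.20 and -0.07 ± 0.16 (SE).

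Itgb5, which pairs with alpha v in the receptor alpha v beta5 used in the uptake of apoptotic cells, read 9.77 in the 129S6 female, 9.91 in the 129S6 male, 10.41 in the B6 female pool and 11.19 in the B6 male pool. The B6 male pool was the highest, and both B6 pools stood above both 129S6 pools. The mean was 1.94-fold higher in B6 (0.96 ± 0.22, SE, limma adjusted p = 0.169), with 0.64 in females and 1.28 in males. The log2 difference was 1.35 without the B6 female pool and 0.57 without the B6 male pool. Itgb7, the partner of alpha 4 and alpha E on leukocytes that home to mucosa, read 9.02 and 9.43 in the 129S6 female and male pools and 9.72 and 10.25 in the B6 female and male pools. Its strains did not overlap, the male pool was above the female pool in each strain, and the strain difference was alike in both sexes, at 0.70 in females and 0.82 in males. The mean difference of 0.76 ± 0.16 (SE) was 1.69-fold and did not pass (limma adjusted p = 0.148), and it was 0.50 without the B6 male pool. Itga4, the alpha 4 chain, read 9.66 and 9.29 in 129S6 and 9.37 and 9.37 in B6, and Itgae, the alpha E chain, ran from 4.52 to 4.79 over all arrays, close to background. Neither alpha partner of beta7 separated the strains.

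Itgb8 stood on the other side. This chain forms alpha v beta8, an activator of latent TGF-beta. It read 6.26 in the 129S6 female, 5.67 in the 129S6 male, 5.32 in the B6 female pool and 5.24 in the B6 male pool, so both B6 pools were lower than both 129S6 pools and the gap was wider in females. The difference of -0.69 ± 0.20 (SE) did not pass (limma adjusted p = 0.230), and it was -0.40 without the 129S6 female pool.

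Among the remaining beta chains, Itgb2 and Itgb1 are the common chains of the main macrophage integrins. Itgb2, the beta2 chain, ran only from 12.38 to 12.53 over the 4 arrays and the strains overlapped, with a difference of 0.01 ± 0.16 (SE) and a 95% interval of -0.44 to 0.45. For Itgb1, the beta1 chain, the readings were 11.47 and 11.32 in 129S6 and 11.14 and 11.13 in B6. Both B6 pools were lower without overlap, but the difference of -0.26 ± 0.16 (SE) did not pass (limma adjusted p = 0.489). Itgb4, the epithelial partner of alpha 6, ran from 4.03 to 4.83 and stayed near background. The epithelial chain Itgb6 and Itgb2l were at or below 4.71 on all arrays.

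Of the alpha chains that pair with beta2, Itgam and Itgax were lower in B6 in value and Itgal was not clearly so. Itgam (CD11b), which forms the complement receptor Mac-1, read 12.06 in the 129S6 female, 11.77 in the 129S6 male, 10.88 in the B6 female pool and 11.21 in the B6 male pool. The B6 pools were both lower, with a gap of -1.18 in females and -0.56 in males. The mean was 1.82-fold higher in 129S6, a difference of -0.87 ± 0.22 (SE, limma adjusted p = 0.192). Itgax (CD11c), the alpha chain of complement receptor CR4, read 11.63 and 11.83 in the 129S6 female and male pools and 10.89 and 11.003 in the B6 pools. Again the strains did not overlap, and females and males were alike in the size of the gap (-0.74 and -0.82). The difference was -0.78 ± 0.16 (SE), with 1.72-fold higher means in 129S6 and an adjusted p of 0.142. Itgal (CD11a), the LFA-1 chain that binds ICAM-1, read 10.42 and 10.53 in 129S6 and 10.47 and 10.07 in B6, where only the B6 male pool was apart and the strains overlapped. Itgad (CD11d) lay at or below 4.71 throughout. Whether these partners differ from each other or from the beta2 chain they share was not tested.

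Itgam, Itgax and Itgad are direct neighbours on chromosome 7, and the RefSeq promoter windows of Itgam and Itgax, which read lower in B6, are shown beside those of Itgb5 and Itgb7, which read higher. The binding core of PU.1, the transcription factor that drives macrophage genes, was searched as GAGGAA on either strand. The letters GGAA inside it are common to the whole ETS family. Each sequence is written 5′ to 3′ along the gene's strand, from 250 bases before to 50 bases after the annotated start in GRCm38.p6, with GAGGAA or its reverse complement in capitals. The windows are chr7:128062390-128062689 (Itgam, + strand), chr7:128129300-128129599 (Itgax, + strand), chr16:33829415-33829714 (Itgb5, + strand) and chr15:102231886-102232185 (Itgb7, - strand).
Itgam: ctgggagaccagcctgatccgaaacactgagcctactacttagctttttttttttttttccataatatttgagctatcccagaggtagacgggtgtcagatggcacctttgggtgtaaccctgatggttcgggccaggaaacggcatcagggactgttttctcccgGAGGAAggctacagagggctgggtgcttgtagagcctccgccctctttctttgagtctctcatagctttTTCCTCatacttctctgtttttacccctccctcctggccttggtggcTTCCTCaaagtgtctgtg
Itgax: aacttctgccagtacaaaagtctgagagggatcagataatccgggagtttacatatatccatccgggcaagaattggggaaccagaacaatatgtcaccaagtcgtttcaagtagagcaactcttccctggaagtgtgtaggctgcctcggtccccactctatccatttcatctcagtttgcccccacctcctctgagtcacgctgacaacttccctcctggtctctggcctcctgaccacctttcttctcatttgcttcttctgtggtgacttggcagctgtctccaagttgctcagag
Itgb5: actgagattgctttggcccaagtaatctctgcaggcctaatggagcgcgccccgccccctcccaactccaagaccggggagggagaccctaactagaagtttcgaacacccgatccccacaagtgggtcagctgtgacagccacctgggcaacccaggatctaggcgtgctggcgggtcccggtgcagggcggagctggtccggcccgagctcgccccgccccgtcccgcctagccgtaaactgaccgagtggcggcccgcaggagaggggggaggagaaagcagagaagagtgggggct
Itgb7: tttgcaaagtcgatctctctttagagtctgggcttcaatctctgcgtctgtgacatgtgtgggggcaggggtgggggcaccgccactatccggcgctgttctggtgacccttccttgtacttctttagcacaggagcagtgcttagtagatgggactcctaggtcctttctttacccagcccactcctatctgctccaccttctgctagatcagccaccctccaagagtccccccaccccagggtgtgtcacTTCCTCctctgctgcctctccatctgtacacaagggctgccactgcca

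Itgam held 3 matches and Itgb7 held 1, whereas Itgax and Itgb5 held 0. Of the other members lower in B6 at an unadjusted p under 0.05 for which a window was read, Itga1 and Itgb8 held 0 and F11r held 1. Over the members, 29 windows of 26 genes were present, and 14 of them (48.3%) held GAGGAA, beside 28.3% of all 32851 windows of the same length. The AP-1 site TGANTCA was in 4 (13.8%, beside 7.81%), with 1 match in Itgax. The GC box GGGCGG was in 18 (62.1%, beside 35.7%), with 3 matches in Itgb5. These motifs were read on both strands. A match describes letters and not a bound site, and these windows come from the reference genome and not from the strains compared.

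The largest gap among the alpha chains was that of Itga1. Itga1, the alpha 1 chain of a collagen and laminin receptor, read 7.03 in the 129S6 female, 6.81 in the 129S6 male, 6.17 in the B6 female pool and 5.41 in the B6 male pool. Both B6 pools were lower and the B6 male pool was lowest. The mean was 2.19-fold higher in 129S6 (-1.13 ± 0.20, SE, limma adjusted p = 0.126). The difference was -1.51 without the B6 female pool and -0.75 without the B6 male pool. Itga2, the alpha 2 collagen receptor chain that lies beside Itga1 on chromosome 13, read 5.26 and 4.51 in 129S6 and 3.99 and 4.42 in B6. Its B6 pools were lower without overlap, but the gap of -1.27 was in females and that in males was -0.10. Only the 129S6 female pool read above the background level of 4.71. Itga9, which binds tenascin-C and VCAM-1, read 7.22 and 6.62 in 129S6 and 6.19 and 6.39 in B6 (-0.63 ± 0.25, SE, limma adjusted p = 0.331). The strains did not overlap, with the larger gap again in females.

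Itga5, the fibronectin receptor chain alpha 5, had readings that hardly differed between the sexes. Both 129S6 pools read 10.74, while the B6 pools read 10.42 (female) and 10.43 (male). The strains did not overlap, but the difference of -0.32 ± 0.15 (SE) was small and did not pass (limma adjusted p = 0.408). Itga6, the laminin receptor chain alpha 6, read 10.15 and 9.60 in 129S6 and 8.98 and 10.18 in B6. Here the B6 female pool was the lowest and the B6 male pool the highest of the 4, so the strain difference was -1.17 in females and 0.58 in males. Itga7, a laminin receptor chain of muscle, was also uneven, with 4.06 in the 129S6 male pool and 5.08 to 5.18 in the other 3. Itga3 ran from 4.28 to 4.73, close to background, and Itga8 and Itga11 were at or below 4.71 on all arrays.

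**Figure D2:**
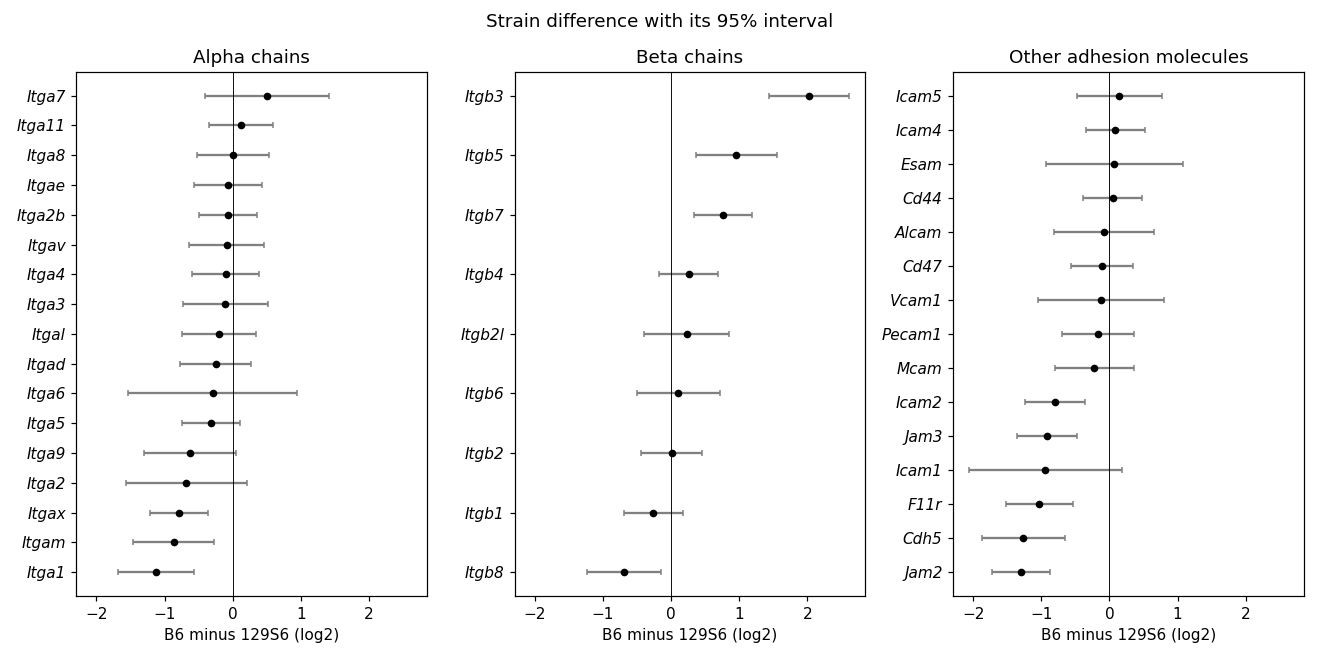
Strain difference (x axis, B6 minus 129S6, log2) of each member (y axis), sorted by size within alpha chains, beta chains and other adhesion molecules. Points are the limma estimates and bars their 95% intervals from 4 arrays. Itgb3 lies farthest to the right at 2.03 and Jam2 farthest to the left at -1.30, and Itga6, Icam1 and Esam have the wide intervals of genes whose sexes disagree.

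The junctional adhesion molecules were lower in B6 in value. Jam2 (JAM-B), which binds JAM-C and the integrin alpha 4 beta1, read 7.95 in the 129S6 female, 7.46 in the 129S6 male, 6.68 in the B6 female pool and 6.13 in the B6 male pool. The strains did not overlap, the gap was nearly the same in females (-1.27) and males (-1.32), and within each strain the male pool was lower. The mean was 2.46-fold higher in 129S6 (-1.30 ± 0.16, SE, 95% interval -1.72 to -0.87, limma adjusted p = 0.0634). F11r (JAM-A), a ligand of LFA-1, read 5.95 and 5.86 in the 129S6 female and male pools and 4.73 and 5.01 in the B6 pools. The B6 readings were just above the background level and the 129S6 readings were above all of them, with a difference of -1.03 ± 0.18 (SE, adjusted p = 0.119). Jam3 (JAM-C), the partner of JAM-B and a ligand of Mac-1, was at or below 4.71 on all arrays, with 4.56 and 4.51 in 129S6 and 3.73 and 3.50 in B6. Its difference of -0.91 ± 0.16 (SE, adjusted p = 0.120) therefore lay within the range of background readings. Esam, an endothelial molecule of the same kind, read 4.82 and 4.28 in 129S6 and 4.21 and 5.04 in B6, and the strains overlapped.

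Cdh5 (VE-cadherin), the cadherin of endothelial junctions, read 8.21 in the 129S6 female, 8.22 in the 129S6 male, 7.27 in the B6 female pool and 6.63 in the B6 male pool. The 129S6 pools were nearly equal and both B6 pools were lower, with a gap of -0.94 in females and -1.59 in males. The mean was 2.40-fold higher in 129S6 (-1.27 ± 0.22, SE, limma adjusted p = 0.120). The difference was -1.58 without the B6 female pool and -0.95 without the B6 male pool. Icam2, a ligand of LFA-1 on endothelium that is also used as a surface marker of resident large peritoneal macrophages, read 6.47 and 5.93 in the 129S6 female and male pools and 5.59 and 5.21 in the B6 pools. These did not overlap and the male pool was lower in each strain (-0.80 ± 0.16, SE, adjusted p = 0.143), and the difference was -0.53 without the 129S6 female pool. Pecam1, the endothelial and leukocyte molecule encoded near Icam2 on chromosome 11 with 2 genes between, ran from 4.62 to 5.03 and the strains overlapped.

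Markers of other cells were read beside these genes. In bulk RNA, fewer cells of a type and less RNA per cell cannot be told apart. Across all genes, 16.3% had an unadjusted limma p under 0.05 in either direction. Of 8 endothelial markers, 0 passed in limma and 2 had an unadjusted p under 0.05 (Kdr and Cldn5, both higher in B6). The mean level of the list was 4.77 and 4.79 in the 129S6 pools and 5.10 and 5.26 in the B6 pools. The part of endothelial cells in the Cdh5 and Icam2 differences was not tested. Emcn, Tek and Cldn5 were at or below 4.71 on all 4 arrays and Egfl7 on 3 of them, while Vwf ran from 8.75 to 9.23 and the strains overlapped. Of 13 markers of resident large peritoneal macrophages, 4 fell in B6 (Alox15, Cxcl13, Prg4 and Serpinb2). Both B6 pools lay below both 129S6 pools in 12 of the 13, beside 26.1% of all genes. The mean level was 9.39 and 8.93 in 129S6 against 6.93 and 6.91 in B6. Of 8 fibroblast markers, 3 fell in B6 (Dcn, Pdgfra and Sparc), and the mean level was 8.09 and 7.91 against 5.63 and 6.24. These 2 lists moved in the same direction as Itgam, Itga1, Icam2, Cdh5 and the JAMs, and their part in those differences was not tested. Of 10 markers of monocyte-derived peritoneal macrophages, 2 rose in B6 (Mrc1 and Retnla) and 1 fell (Vcan). Of 11 general macrophage genes 0 passed, 6 had an unadjusted p under 0.05 (3 in each direction), and the mean level was 10.83 and 10.76 against 10.84 and 10.73. These near-equal means cover differences from -1.65 to 1.07. The platelet list, read because Itgb3 and Itga2b are platelet genes, held 6 measured genes, of which 0 passed. The 3 with an unadjusted p under 0.05 were split. Tubb1 was higher in B6 (1.11 ± 0.23, SE), and Ppbp (-1.45 ± 0.15) and Treml1 (-0.60 ± 0.16) were lower. Mean levels of the list were 6.09 and 5.68 in 129S6 and 5.85 and 5.57 in B6. The part of platelets in the Itgb3 difference was not tested. Among the markers of mesothelial cells, neutrophils, eosinophils, mast cells, B cells, T and NK cells and dendritic cells, only Siglecf of the eosinophil list passed (1.88 ± 0.16, SE, higher in B6, limma adjusted p = 0.0438). The remaining eosinophil markers were at or below 4.71 on all arrays, with differences from -0.15 to 0.30.

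Among the ligands of the beta2 and alpha 4 integrins, Icam1 and Vcam1 depended on single pools. Icam1, the ligand of LFA-1 and Mac-1 that inflammatory signals induce, read 10.12 in the 129S6 female, 10.18 in the 129S6 male, 9.95 in the B6 female pool and 8.46 in the B6 male pool. Both B6 pools were below both 129S6 pools, but the gap was -0.17 in females and -1.72 in males, and the mean difference of -0.94 ± 0.41 (SE) did not pass (limma adjusted p = 0.365). Without the B6 female pool it was -1.69, and without the B6 male pool -0.20. Vcam1, the ligand of alpha 4 beta1, read 6.76 and 6.26 in the 129S6 female and male pools and 7.26 and 5.53 in the B6 pools. The B6 female pool was the highest and the B6 male pool the lowest, so the strains overlapped and the difference was 0.50 in females and -0.73 in males. Icam4 and Icam5, next to Icam1 on chromosome 9 and known from red cells and neurons, were at or below 4.71 on all arrays.

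Cd44, Cd47, Alcam and Mcam gave no strain difference beyond their spread. Cd44 ran from 9.18 to 9.29, with a difference of 0.05 ± 0.16 (SE, 95% interval -0.38 to 0.48). Cd47, the signal that binds SIRP alpha and restrains phagocytosis, ran from 10.62 to 10.86 and differed by -0.11 ± 0.17 (SE, 95% interval -0.56 to 0.34). Alcam, the ligand of CD6, read 10.74 and 10.29 in 129S6 and 10.21 and 10.66 in B6, with the strains overlapping and the sexes opposed. Mcam (CD146) ran from 4.67 to 5.20, near background, and overlapped as well.

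**Figure D3:**
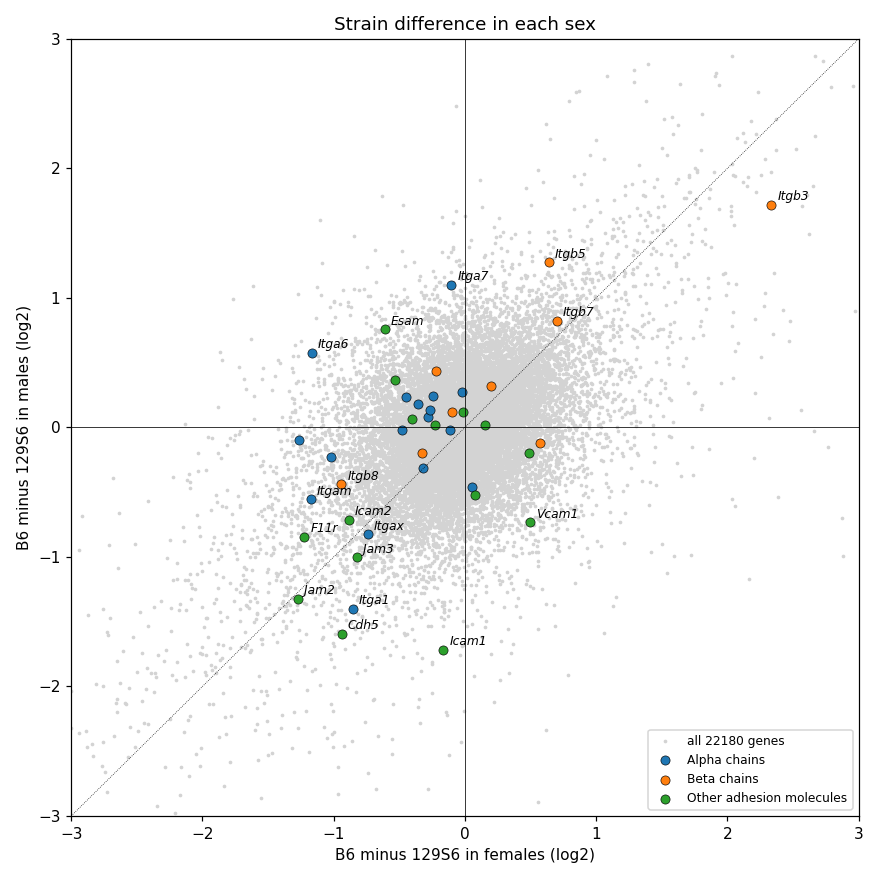
Strain difference (B6 minus 129S6, log2) in females (x axis) against that in males (y axis), each from 1 array per strain. Grey points are all 22180 genes, of which 104 lie outside the axes, and coloured points are the 41 members. Itgb3, Itgb5 and Itgb7 lie in the upper right, Jam2, Cdh5, Itga1 and F11r in the lower left, and Itga6, Esam, Itga7 and Vcam1 in the quadrants where the sexes had opposite signs.

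The strain difference had opposite signs in females and males in 20 of the 41 members, and in 8113 of the 22180 genes. With 1 array per strain and sex, no residual was left to test an interaction. Among these 20, the members with the widest gap between the sexes were Itga6 (-1.17 in females, 0.58 in males), Esam (-0.61 and 0.76), Vcam1 (0.50 and -0.73) and Itga7 (-0.10 and 1.10). For the sex difference itself, male minus female with strain in the limma model, none of the members passed, beside 0.0135% of all genes, and 5 had an unadjusted p under 0.05, beside 5.22%. Vcam1 (-1.11 ± 0.34, SE), Jam2 (-0.52 ± 0.16) and Icam2 (-0.46 ± 0.16) were lower in male pools, and Itgb4 (0.54 ± 0.16) and Itgb7 (0.47 ± 0.16) were higher. At the probe sets used, the male pool was on that side of the female pool in both strains for each of these genes. Itgb4 read from 4.03 to 4.83, near background. A probe set it shares with B230344G16Rik read lower in the male pool of both strains.

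Genes that work with integrins were read as lists. For comparison, 16.3% of all genes had an unadjusted p under 0.05 in either direction. Of 28 genes of integrin activation and the adhesome, the proteins that tie integrins to actin, 0 passed in limma, 1 was higher and 5 were lower in B6 at an unadjusted p under 0.05, and the median difference was -0.07. Among the activators of leukocyte integrins, Tln1 (talin 1) differed by 0.08 ± 0.16 (SE), and its strains overlapped. Fermt3 (kindlin 3) differed by -0.27 ± 0.15 (SE), with both B6 pools lower and no overlap of the strains. Both genes were chosen after their values were seen, and they do not stand for the other activators in the list. The widest gaps were those of Parva (alpha-parvin, -1.56 ± 0.22) and Bcar1 (p130Cas, -1.52 ± 0.24). Bcar1 read 3.95 and 4.39 in the B6 pools, below the background level of 4.71. The fibroblast markers were lower in the same pools, and their part in these differences was not tested. Of 9 tetraspanins, membrane organizers that associate with integrins, 0 passed, 1 was higher and 1 lower at an unadjusted p under 0.05, and the median was 0.01. Cd81 differed by -1.37 ± 0.28 and Tspan4 by 0.46 ± 0.17.

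Matrix ligands of integrins and CD44 were mostly lower in B6 in value. Of the 18 measured, 1 fell in B6 by the limma test, 0 rose, and at an unadjusted p under 0.05 there were 8 lower and 1 higher, with a median of -0.56. The fibroblast markers, several of them matrix genes themselves, were lower in the same pools (median -2.29, 3 of 8 passing), and their part in the values of the matrix ligands was not tested. Nid1 (nidogen 1), a basement membrane protein, was the one that fell, from 7.80 and 7.53 in the 129S6 female and male pools to 5.23 and 4.99 in B6 (-2.56 ± 0.15, SE, adjusted p = 0.0365). The next largest were Thbs1 (thrombospondin 1, a ligand of CD47 and of beta3 integrins) at -2.34 ± 0.40 and, on the other side, Mfge8, the bridging protein by which alpha v beta3 and alpha v beta5 bind apoptotic cells. Mfge8 read 10.61 in the 129S6 female, 10.24 in the 129S6 male, 12.42 in the B6 female pool and 12.66 in the B6 male pool. Both B6 pools were high, as for Itgb3 and Itgb5, and the difference of 2.11 ± 0.22 (SE) just missed the threshold (adjusted p = 0.0527). For Fn1 (fibronectin), the ligand of alpha 5 beta1, the 129S6 female and male pools read 13.25 and 13.05 and the B6 pools 12.40 and 12.37, and the gap missed the threshold (adjusted p = 0.151). Of 11 partners of CD47, CD44 and the junctional molecules 0 passed, with a median of -0.16. Among these, Tjp1 (ZO-1), the scaffold that JAMs bind, differed by -1.15 ± 0.22 and Sirpa, the receptor of CD47, by 0.76 ± 0.16.

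**Figure D4:**
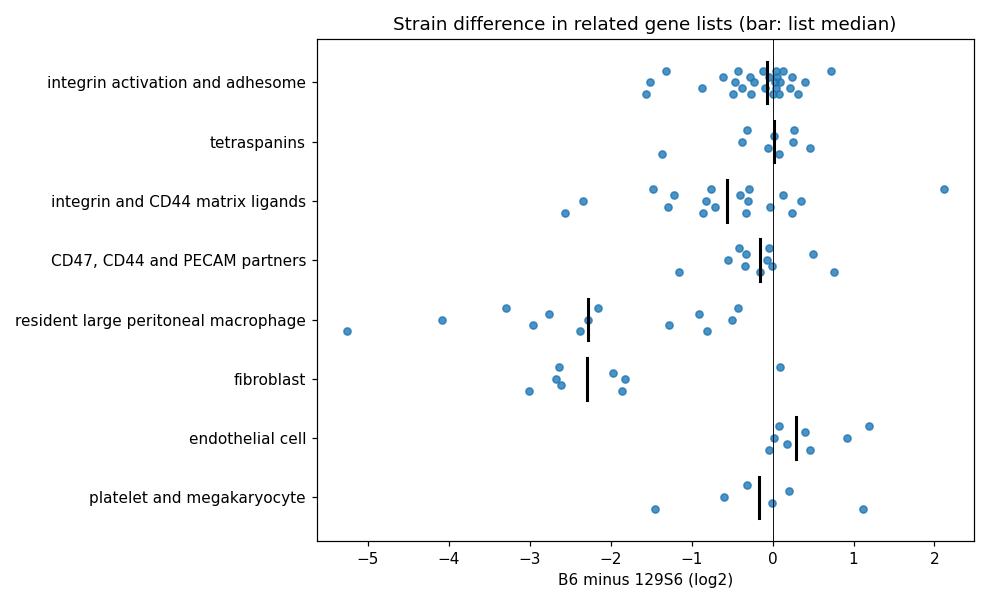
Strain difference (x axis, B6 minus 129S6, log2) of the genes of 8 lists (y axis), with a black bar at each list's median. Each point is a gene. The medians of the adhesome (-0.07) and the tetraspanins (0.01) lie near 0, that of the matrix ligands is -0.56, and those of the resident large peritoneal macrophage and fibroblast markers lie at -2.28 and -2.29.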

How the data were processed

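RNA (250 ng per pool) was hybridized to Affymetrix whole-transcript arrays. The authors deposited log2 intensities per probe set from Affymetrix Expression Console (version and summarization not given in the sources used here). Values ran from 0.79 to 13.81 and array medians from 4.85 to 4.87, and they were not normalized again.

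The platform annotation listed 25341 of 41345 probe sets, 23521 with 1 gene symbol (used here) and 1820 with several, and 16004 were not listed. For 1082 genes with several probe sets the one with the highest mean was kept, leaving 22180 genes. RefSeq gene numbers matched 23328 of the single-symbol sets, and 0 symbols changed.

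Strain and sex were additive terms in limma 3.58.1 (lmFit, eBayes; R 4.3.3), with 1 residual and 3.18 prior degrees of freedom and Benjamini-Hochberg adjustment over all genes. The script was tested on simulated data. Precision is limited by the number of arrays.

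Members and lists were chosen with earlier results of these data known. Members with an unadjusted limma p under 0.05 or a 2-fold mean difference were described in full and the others by group, and of each other list the called genes, or else up to 2 with the largest difference. Tln1, Fermt3, Thbs1, Mfge8, Fn1, Vwf, Emcn, Tek, Egfl7, Cd68, Csf1r and Lyz2 were added for their roles after their values were seen. Alternatives were no sex term, a prior following the level, brighter genes only, other uses of probe sets, quantile normalization, median centring and leaving out each array.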

Additional observations from a re-analysis of the deposited data

Results flagged for a closer look

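Esam, an adhesion molecule of endothelial junctions, differed by -0.61 between the strains (B6 minus 129S6, log2) in females and by 0.76 in males. It stood out because the strain difference exceeded 1.5-fold in each sex with opposite signs, and no other member did so. Each value rests on 1 array per strain, and the difference between the sexes was not tested. On 2 of the 4 arrays (the 129S6 male and the B6 female pool) Esam was at or below 4.71, the highest reading of a Y-linked gene in a female pool.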

How the results depend on the processing

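The number of members that passed for strain was 0 as reported and also with a gene's probe sets averaged, with all probe sets tested, with quantile normalization and with median centring. It was 1 without the sex term (Itgb3), where 1.94% of all genes passed. Among brighter genes it was 2 of 25 tested (Itgb3 and Jam2), where 5.31% of the genes tested passed. With a prior following the level it was 8 (Cdh5, Itga1, Itgam, Itgax, Itgb3, Itgb5, Itgb7 and Jam2), where 5.66% of all genes passed. With each array left out it ranged from 0 to 5, the 5 being Cdh5, Icam1, Itga1, Itgb3 and Itgb5 without the B6 female pool. Over all genes, 189 passed as reported and between 0 (all 41345 probe sets tested) and 1256 (prior following the level) under the alternatives. The 12 members described at an unadjusted p under 0.05 kept their direction in all of 131 pairs of member and alternative setting. In most settings this could not have come out otherwise. The strains did not overlap in these members, so leaving out an array could not reverse a sign. Settings that changed only the model or the genes tested left the estimates as they were. The median over the other adhesion molecules was -0.17 as reported, -0.80 among brighter genes, where dim members are not tested, and from -0.40 to -0.10 with an array left out, and that over the integrins was -0.10 as reported, -0.23 among brighter genes and from -0.19 to 0.04 with an array left out. Differences of members at or below 4.71 on all arrays are within background readings. The replicate of a strain is its sex, so the block of a paired fit is the sex term above, and without it (no replicate block) 13 members had an unadjusted p under 0.05, against 12.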

Other observations

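Second probe sets were present for a few members. A probe set shared by Itgb4 and B230344G16Rik read 4.83 and 4.07 in 129S6 and 4.64 and 4.06 in B6. Its male pool was lower in both strains, opposite to the Itgb4 probe set used. Itgav had another probe set with readings from 4.22 to 4.52, where the difference was 0.21 (B6 minus 129S6, log2), against -0.09 at the probe set used. A probe set shared by Itga4 and Cerkl, which therefore names neither gene, read 5.21 and 5.18 in the 129S6 female and male pools and 5.48 and 6.06 in B6, a difference of 0.57, against -0.10 at the probe set of Itga4 alone.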
